A study of Mus musculus with 12 samples.

Results

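Messenger RNAs of 7 cardiac muscle genes were followed in neutrophils sorted from mouse hearts: Pln, Ryr2 and Atp2a2 of calcium cycling, Mb and Ckm of energy supply, and Nppa and Nppb, the natriuretic peptide genes. They were chosen by name as heart muscle genes outside the sarcomere, and all 7 were among the 11911 genes of the deposited table. RNA was sequenced in 12 libraries, 6 of the genotype labelled LOY (numbered 3, 4, 5, 10, 14 and 15 in the titles) and 6 of the genotype labelled control (2, 6, 7, 8, 11 and 12). Per the series title, LOY concerns a Y chromosome lost from hematopoietic cells; all titles name a control transplant of bone marrow (BMT), and the treatment label was control throughout. Each library was made from 800 cells of a digested left ventricle, gated on CD45.2 (a leukocyte allele), Ly6G (a neutrophil surface protein) and RFP (a red fluorescent protein), with CD64-positive macrophages left out. How the Y chromosome was removed, which cells carry the red protein and whether each library is 1 mouse are not stated in the labels, so the p-values speak to variation among these 12 samples, which may be technical. In all 7 genes the mean over the LOY libraries was above that over the control libraries, as in 50.9% of all genes in the table. None of the 7 passed the test, which 0.0288% of all tested genes passed. LOY and control libraries overlapped in each of the 7. The lowest LOY library was above the highest control library in only 0.101% of all tested genes.

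In a heart muscle cell, each beat starts with calcium that leaves the sarcoplasmic reticulum through the ryanodine receptor (Ryr2). The pump SERCA2 (Atp2a2) returns it, and phospholamban (Pln) holds the pump back until it is phosphorylated. Myoglobin (Mb) stores oxygen beside the mitochondria, and the muscle creatine kinase (Ckm) moves phosphate between creatine and ATP at the contractile filaments. Atrial and B-type natriuretic peptides (Nppa and Nppb) are hormones of the heart that promote salt and water loss and widen vessels, and their genes are induced in the ventricle under mechanical load. Neutrophils are not known as a source of these muscle proteins, apart from SERCA2, which many cell types hold. In sorted cells a higher level can come from more muscle RNA or cells in the sort or from more RNA per cell, and these cannot be told apart in bulk RNA.

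Nppa and Nppb lie in tandem on chromosome 4, with 13516 bases between the end of Nppb and the start of Nppa (GRCm38, GENCODE M21), and Ckm lies on chromosome 7. The 250 bases before the start of these 3 genes are shown because Nppa and Ckm had the smallest p-values of the 7 and Nppb is the tandem neighbour of Nppa. They are from RefSeq (GRCm38.p6), on the plus strand, at chr4:147985650-147985899 for Nppb, chr4:148000472-148000721 for Nppa and chr7:19410844-19411093 for Ckm. The GENCODE gene models of Nppb and Ckm reach further upstream than these RefSeq starts. Capitals mark 4 motifs searched on both strands, namely the TATA box core TATAAA, the core GATAA that is bound by GATA factors (reading TTATC on the opposite strand), the E-box CAGCTG and the M-CAT element CATTCC (reading GGAATG on the opposite strand).
Nppb: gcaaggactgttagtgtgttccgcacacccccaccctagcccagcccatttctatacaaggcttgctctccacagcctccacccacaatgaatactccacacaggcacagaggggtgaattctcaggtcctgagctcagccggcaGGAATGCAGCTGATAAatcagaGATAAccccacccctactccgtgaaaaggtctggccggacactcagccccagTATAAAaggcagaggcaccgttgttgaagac
Nppa: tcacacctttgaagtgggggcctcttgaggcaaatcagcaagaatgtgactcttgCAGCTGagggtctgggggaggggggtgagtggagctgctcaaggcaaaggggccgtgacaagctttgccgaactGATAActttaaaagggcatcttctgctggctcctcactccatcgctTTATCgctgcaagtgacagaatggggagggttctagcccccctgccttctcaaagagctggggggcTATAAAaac
Ckm: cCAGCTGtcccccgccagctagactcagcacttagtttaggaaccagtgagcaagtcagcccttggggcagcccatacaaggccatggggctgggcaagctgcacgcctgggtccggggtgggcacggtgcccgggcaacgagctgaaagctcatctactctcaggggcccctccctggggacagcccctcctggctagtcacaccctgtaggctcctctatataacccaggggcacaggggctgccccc
Counted from the base before the start as -1, TATAAA stood at -31 to -26 in Nppb and at -9 to -4 in Nppa. GATAA was found at 2 places in each of them. The first in Nppb, at -94 to -90, shares a base with the E-box at -99 to -94, and the M-CAT element lies directly before that E-box. Ckm held the E-box, at -249 to -244, and none of the other motifs marked. Of 32851 RefSeq windows of this length, 12.4% held TATAAA, 22.6% GATAA, 13.0% CAGCTG and 12.6% CATTCC on either strand. These matches describe the letters only. Windows of 6 of the 7 genes were in the RefSeq table, all but Atp2a2.

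The libraries held 6767108 to 10203723 reads of listed genes in LOY and 7176250 to 12561174 in control. The unit throughout is the normalised read, a count scaled by a factor of its own library, and 3 reads, the limit that a count of 0 allows, were 1.70 to 3.80 normalised reads. The Y-linked genes Ddx3y, Eif2s3y and Uty summed to between 0 and 59.3 normalised reads per LOY library, against 1032 to 1972 per control library. The sort was checked on 12 neutrophil markers, which summed to 192126 to 389189 normalised reads in LOY libraries and to 214089 to 624893 in control libraries. S100a9, an abundant neutrophil protein, averaged 95152 ± 34171 in LOY and 132105 ± 68717 in control (SD, n = 6 each), while Ly6g, the gene of the gate, averaged 185 ± 244 in LOY and 436 ± 391 in control and did not reach the test's threshold (limma adjusted p = 0.997). LOY 10 stood apart for the genes described here, with the highest value of all 12 libraries in each of the 7. Its neutrophil marker sum, 214384, lay near the low end, and its 18 sarcomere genes summed to 73941, against 5908 to 17619 in the other 5 LOY libraries and 3784 to 8103 in the control libraries. Values without LOY 10 are therefore given beside those of the 7 genes and of the lists whose counts they change, and the cause of its position was not tested.

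As a whole, the 7 genes took up little of each library. They summed to 4431, 1494, 648, 14822, 3311 and 3648 normalised reads in LOY 3, 4, 5, 10, 14 and 15, against 754, 1866, 975, 1236, 1516 and 1744 in control 2, 6, 7, 8, 11 and 12. LOY 3, 10, 14 and 15 were above every control library, while LOY 5 had the lowest sum of all 12. In reads this was 0.00844% to 0.206% of a LOY library and 0.0103% to 0.0229% of a control library. Set against the sarcomere genes of the same library, the 7 genes came to 11.0% to 26.5% of the sarcomere sum in LOY (median 20.4%) and to 9.31% to 46.1% in control (median 18.5%). The ranges of this ratio overlap widely.

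Detection was nearly all or none. Of 84 pairs of a gene and a library, 19 had 0 reads, 5 had 1 to 20 reads and 60 had more than 20. A value of 0 occurred in 7 of the 42 LOY pairs and in 12 of the 42 control pairs. All 7 genes were read in LOY 3, 10 and 15 and in control 11, and LOY 5 lacked 4 of them. With 800 sorted cells and no molecular identifiers, PCR copies count as reads, so 20 reads are not 20 molecules.

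**Figure D1:**
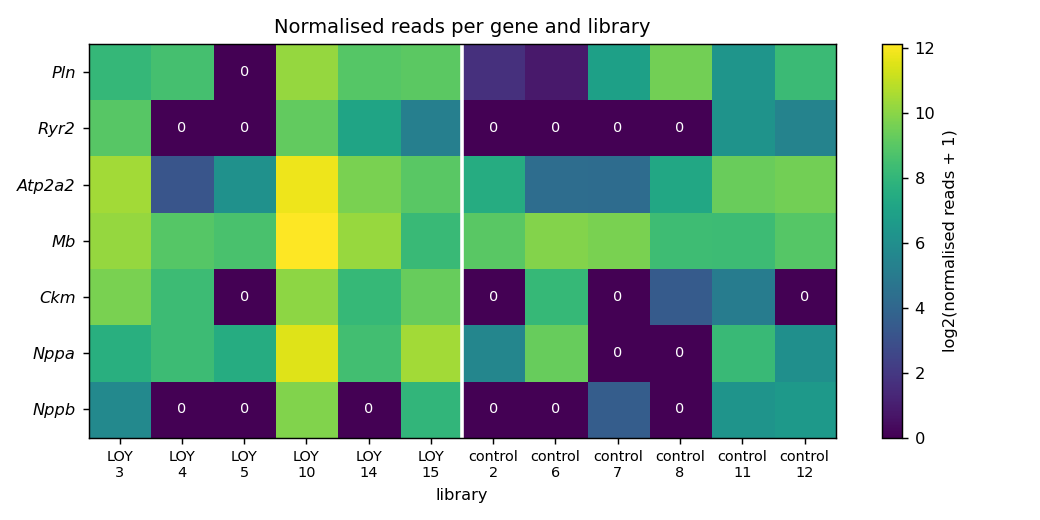
Shading gives log2(normalised reads + 1) of the 7 genes (rows) in each library (columns, LOY left of control), and 0 marks a pair without reads. LOY 10 has the highest value in every row, and zeros lie in both genotypes, 7 of 42 in LOY and 12 of 42 in control.

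Among the calcium genes, Pln, the SERCA2 inhibitor (ENSMUSG00000038583, GRCm38 chromosome 10, 53337667 to 53345987, plus strand), was read in 11 libraries. It had 271, 369, 0, 1195, 485 and 530.4 normalised reads in LOY 3, 4, 5, 10, 14 and 15. The control libraries 2, 6, 7, 8, 11 and 12 had 2.18, 0.748, 117, 739.9, 77.9 and 307. LOY 10 was the highest and control 8 came next, above the other 5 LOY libraries. The means were 475 ± 400 in LOY and 207 ± 284 in control (SD, n = 6 each), a ratio of 2.29, which was 1.60 without LOY 10 and 4.70 without control 8. The log2 fold change was 1.89 (SE 1.93, limma adjusted p = 0.998) and 1.34 without LOY 10, higher in 5 of 6 LOY libraries than the control median. In the mouse annotation its exons share 141 bases with Cep85l and 1644 with Gm47644 on the other strand.

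Ryr2, the calcium release channel (ENSMUSG00000021313, chromosome 13, 11553102 to 12106945, minus strand), was read in 6 libraries, 4 LOY and 2 control. Its values in LOY 3, 4, 5, 10, 14 and 15 were 502, 0, 0, 584, 136 and 37.1 normalised reads. Among control libraries, 11 and 12 had 73.9 and 41.6, and 2, 6, 7 and 8 had 0. LOY 3, 10 and 14 were above both control values, and LOY 15 was below them. The means were 209.8 ± 264 in LOY and 19.3 ± 31.5 in control (SD, n = 6 each). Their ratio, 10.9, was 7.01 without LOY 10 and 25.2 without control 11. On the log2 scale the difference was 3.15 (SE 1.96, limma adjusted p = 0.997), and without LOY 10 the gene no longer met the filter on low values.

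Atp2a2, the pump itself (ENSMUSG00000029467, chromosome 5, 122453513 to 122502225, minus strand), was read in all 12 libraries. LOY 3, 4, 5, 10, 14 and 15 had 1399, 8.14, 69.2, 3583, 821 and 526 normalised reads. Control 2, 6, 7, 8, 11 and 12 had 178, 19.5, 18.2, 155, 646 and 745. Both the highest and the lowest value were in LOY, and 3 LOY libraries were above all control libraries. The means were 1068 ± 1335 in LOY and 294 ± 320 in control (SD, n = 6 each). That ratio of 3.64 was 1.92 without LOY 10. The log2 fold change was 1.34 (SE 1.46, limma adjusted p = 0.999) and 0.66 without LOY 10. The 6 libraries with the highest Atp2a2 were exactly the 6 in which Ryr2 was read, and Nppb was read in 5 of those 6. The 83 exon bases that Atp2a2 shares with Gm43361 leave a few of its reads uncertain in assignment, since the kit keeps no strand.

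Mb, the oxygen store (ENSMUSG00000018893, chromosome 15, 77015487 to 77050670, minus strand), had the smallest SE of the 7 on the log2 scale. Its values were 1177, 484, 398, 4474, 1240.2 and 297 normalised reads in LOY 3, 4, 5, 10, 14 and 15, and 526, 936, 829, 332, 314 and 494 in control 2, 6, 7, 8, 11 and 12. LOY 10 was far above the other 11 libraries, and LOY 15 was the lowest. Over the groups this gave 1345 ± 1585 in LOY and 572 ± 257 in control (SD, n = 6 each), a ratio of 2.35 that was 1.26 without LOY 10. The log2 fold change was 0.69 (SE 0.62, limma adjusted p = 0.997), and 0.21 (SE 0.54) without LOY 10. Its exons overlap those of Gm49540 over 412 bases and of Apol6 over 64.

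Ckm, the muscle creatine kinase (ENSMUSG00000030399, chromosome 7, 19404776 to 19422841, plus strand), had the largest limma log2 fold change of the 7, whereas Ryr2 had the largest by DESeq2, edgeR and the ratio of means. LOY 3, 4, 10, 14 and 15 had 828, 314, 1057, 279.6 and 634 normalised reads, and LOY 5 had 0. In control libraries, 6, 8 and 11 had 278, 10.1 and 32.96, and 2, 7 and 12 had 0. LOY 3, 4, 10, 14 and 15 were above the highest control library, LOY 14 by little, and LOY 5 kept the groups overlapping. The means were 519 ± 392 in LOY and 53.6 ± 111 in control (SD, n = 6 each). Their ratio of 9.68 was 7.68 without LOY 10 and 60.2 without control 6, which holds most of the control reads. The log2 fold change was 4.80 (SE 1.96, 95% interval 0.61 to 8.99), with an unadjusted p of 0.0278 and a limma adjusted p of 0.997. Without LOY 10 it was 4.31 (SE 2.08), with an unadjusted p of 0.0590 in limma. The antisense gene A930016O22Rik shares 451 exon bases with Ckm.

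Of the hormones, Nppa (ENSMUSG00000041616, chromosome 4, 148000722 to 148002079, plus strand) was read in all 6 LOY libraries and 4 control libraries. LOY 3, 4, 5, 10, 14 and 15 had 202, 319, 181, 3008, 350.0 and 1375 normalised reads. Control 2, 6, 11 and 12 had 47.1, 631, 296 and 63.9, and control 7 and 8 had 0. LOY 10 and 15 were above every control library, and all 6 LOY libraries were above the control median of 55.5. The means were 906 ± 1124 in LOY and 173.0 ± 249.99 in control (SD, n = 6 each). The ratio of means, 5.24, was 2.81 without LOY 10 and 11.1 without control 6. Nppa had a log2 fold change of 4.13 (SE 1.65, 95% interval 0.60 to 7.66), with an unadjusted p of 0.0248 and a limma adjusted p of 0.997. Without LOY 10 the log2 fold change was 3.62 (SE 1.76), with an unadjusted p of 0.0606 in limma. Its antisense neighbour Gm13054 shares 532 exon bases with it and had 2.10 to 58.6 normalised reads in the LOY libraries and 0 to 27.7 in control, with the highest value again in LOY 10. Reads of the pair cannot be told apart without strand.

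Nppb (ENSMUSG00000029019, chromosome 4, 147985788 to 147987205, plus strand), whose start is shown above beside that of Nppa, was read in 3 libraries of each genotype. LOY 3, 10 and 15 had 50.6, 921 and 248 normalised reads and the other 3 had 0. Control 7, 11 and 12 had 10.8, 75.6 and 91.6, and the other 3 had 0. LOY 10 and 15 were above every control library, and LOY 10 alone held 75.5% of the normalised reads of Nppb in LOY. The means were 203 ± 365 in LOY and 29.7 ± 42.3 in control (SD, n = 6 each), with a ratio of 6.85 that was 2.01 without LOY 10 and 11.8 without control 12. The log2 fold change was 1.19 (SE 2.05, limma adjusted p = 0.999). The tandem neighbours were both read in 5 libraries, Nppa alone in 5, Nppb alone in 1 and neither in 1.

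**Figure D2:**
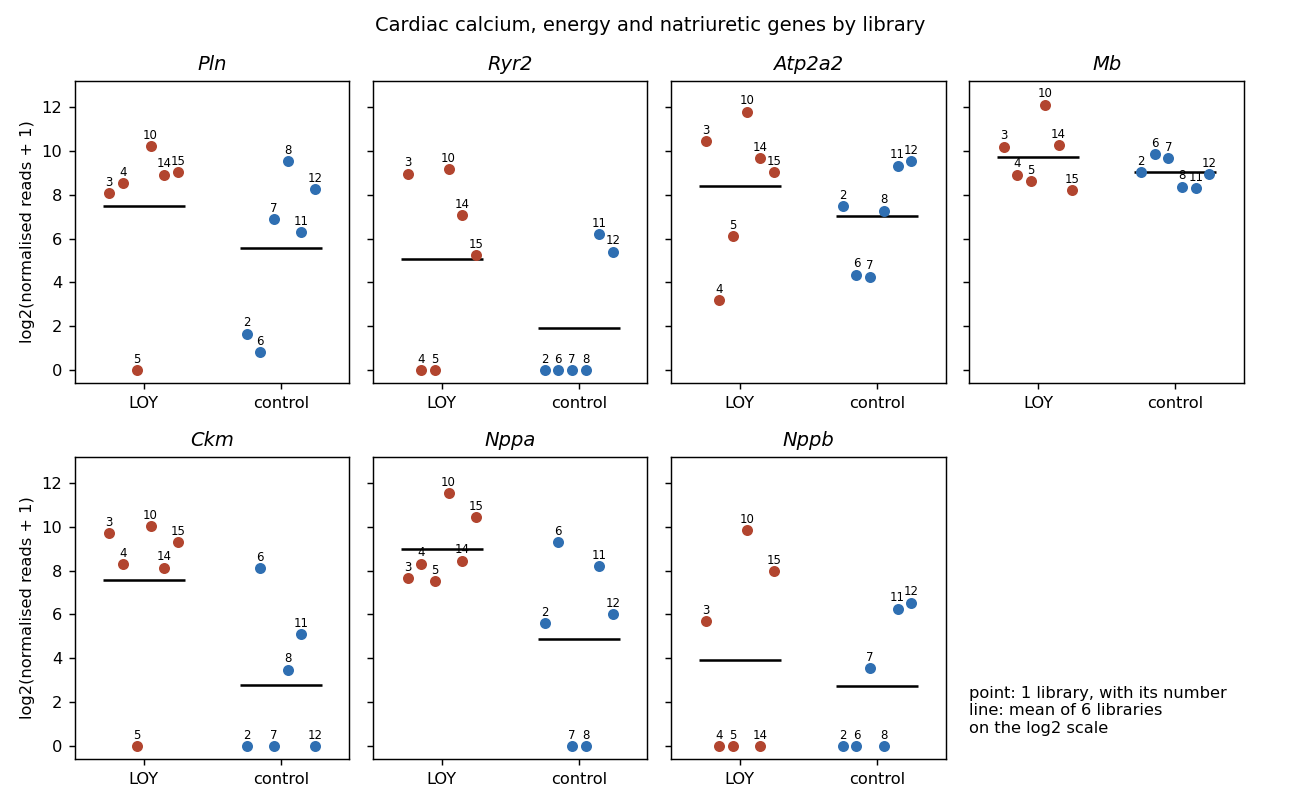
Each panel gives 1 gene as log2(normalised reads + 1) by library, LOY left of control, with the library number over each point and the group mean as a line (n = 6 each). The groups overlap in every panel, LOY 10 is the highest point in all 7, and Ckm has 5 LOY libraries above the highest control library.

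None of the 7 genes was called by limma at an adjusted p below 0.05, a threshold that 2 of 6951 tested genes passed (0.0288%). Ckm and Nppa, 2 of the 7, had an unadjusted p below 0.05 with higher values in LOY, as did 2.33% of all tested genes. DESeq2 on the reads called none of the 7 either, while it called 3.12% of the genes it tested, and Ckm alone had an unadjusted p below 0.05 there, 1 of 7 beside 10.1% of all genes. By edgeR no gene at all was called (0%) and none of the 7 had an unadjusted p below 0.05, beside 1.83% of all genes. The lowest LOY library was above the highest control library in none of the 7 and in 0.101% of all tested genes. All 7 log2 fold changes were positive, with a median of 1.89, beside 3500 positive and 3451 negative over all tested genes and a median of 0.01. Without LOY 10, 5 of the 7 were still tested, all 5 were positive with a median of 1.34, and none had an unadjusted p below 0.05 in limma. In the authors' deposited table the log2 fold changes ran from 1.20 (Pln) to 3.44 (Ryr2), with adjusted p-values of 0.464 (Ckm) to 0.999. For all 7 genes these fold changes and their p-values equal those of DESeq2 on the reads to within 1e-05, so the deposited values and the DESeq2 values are 1 result, not 2.

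**Figure D3:**
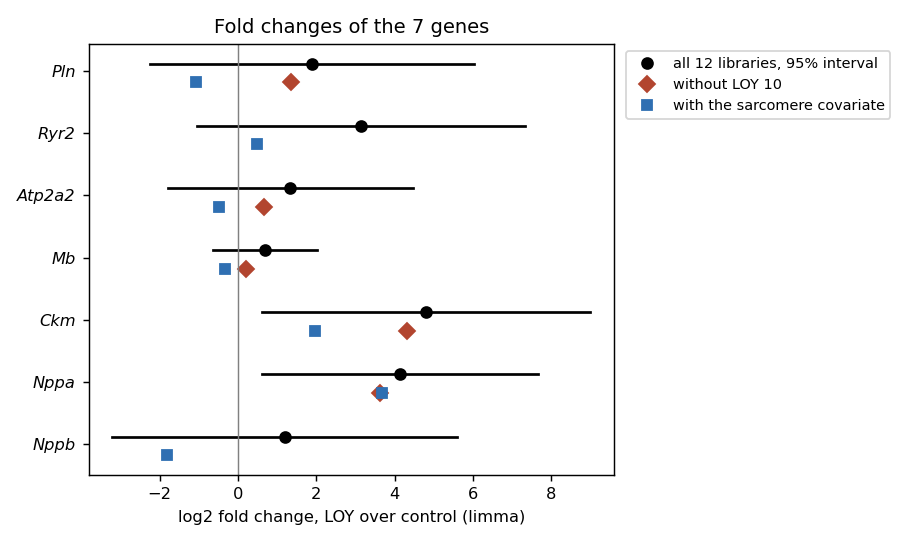
Black points are log2 fold changes, LOY over control, with 95% intervals from limma on all 12 libraries, diamonds the values without LOY 10, and squares those of a fit with the sarcomere list as a covariate. The intervals of Ckm and Nppa lie above 0 and the other 5 include it, and Ryr2 and Nppb have no diamond because they did not meet the filter without LOY 10.

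Levels can be compared between genes only per length. The lengths were not corrected for exon bases shared with other genes, where reads are uncertain in assignment without strand. A single other gene shared 1644 of 2759 bases of Pln, 532 of 865 of Nppa, 412 of 1492 of Mb and 451 of 2913 of Ckm. Over all 12 libraries, Mb had a mean level of 642 normalised reads per kilobase of merged exons and Nppa 624. Nppb followed with 149, Pln with 124, Atp2a2 with 112 and Ckm with 98.3, and Ryr2, whose exons span 28.79 kilobases, had 3.98. The order of the means says little of most neighbours. Mb was above Nppa in 7 of 12 libraries, Nppb above Pln in 4, Pln above Atp2a2 in 5 and Atp2a2 above Ckm in 8, and each of these mean differences was smaller than its SD over libraries. Nppa was above Nppb in 9 libraries and below it in 2, and Ckm was above Ryr2 in 8 and below it in 1, and the mean differences there too were within 1 SD. With the longest transcript as length the order of these means was the same. It differed between the genotypes. In LOY, Nppa averaged 1047 per kilobase and Mb 901, followed by Nppb at 260.3, Ckm at 178, Atp2a2 at 176, Pln at 172 and Ryr2 at 7.29. In control, Mb averaged 383 and was above Nppa, followed by Pln at 75.2, Atp2a2 at 48.3, Nppb at 38.0, Ckm at 18.4 and Ryr2 at 0.669.

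The sarcomere list holds heart muscle genes that are not among the 7, and each of the 7 was set against its sum across the 12 libraries. Whether that sum measures the muscle RNA in a library was not tested. For Ckm, on the log2 scale, Pearson's r was 0.73 and Spearman's rho 0.86, each with an adjusted permutation p of 0.00749 over the 14 relations computed. The permutations ran over all 12 libraries without regard to genotype. LOY 3, 4, 10, 14 and 15 were above every control library in both Ckm and the sarcomere sum. The permutation p-values thus hold the difference between LOY and control too, and do not measure the relation within a genotype. Without LOY 10 and 15, the libraries farthest from the median of the sum, r of Ckm was 0.77, and it was 0.72 within LOY and 0.36 within control. LOY 5, with Ckm at 0 and the lowest sum in LOY, 5908, was kept in the r of 0.77 and of 0.72. Mb also had an r of 0.73 (adjusted permutation p = 0.0829) and a rho of 0.40 (adjusted permutation p = 0.225), and the difference between the genes was not tested. For Ryr2, Nppa, Nppb, Pln and Atp2a2, r lay between 0.46 and 0.56, with adjusted permutation p-values of 0.116 to 0.176, and rho between 0.24 and 0.65, with adjusted permutation p-values of 0.0918 to 0.444. Without LOY 10 and 15, r was 0.59 for Mb and between -0.24 and 0.30 for those 5. Within LOY r was 0.68 to 0.85 for all 7, where LOY 10 is the far point. Within control r was -0.71 for Nppb, -0.70 for Ryr2, -0.61 for Atp2a2, -0.41 for Pln and -0.20 for Nppa, over sarcomere sums of 3784 to 8103. There control 12 is the far point, at 3784, followed by control 11 at 7012, and the other control libraries lay at 7844 to 8103. Ryr2 was read in control 11 and 12 alone among the control libraries. These r values thus rest mainly on those libraries and show no trend over a range of sums.

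**Figure D4:**
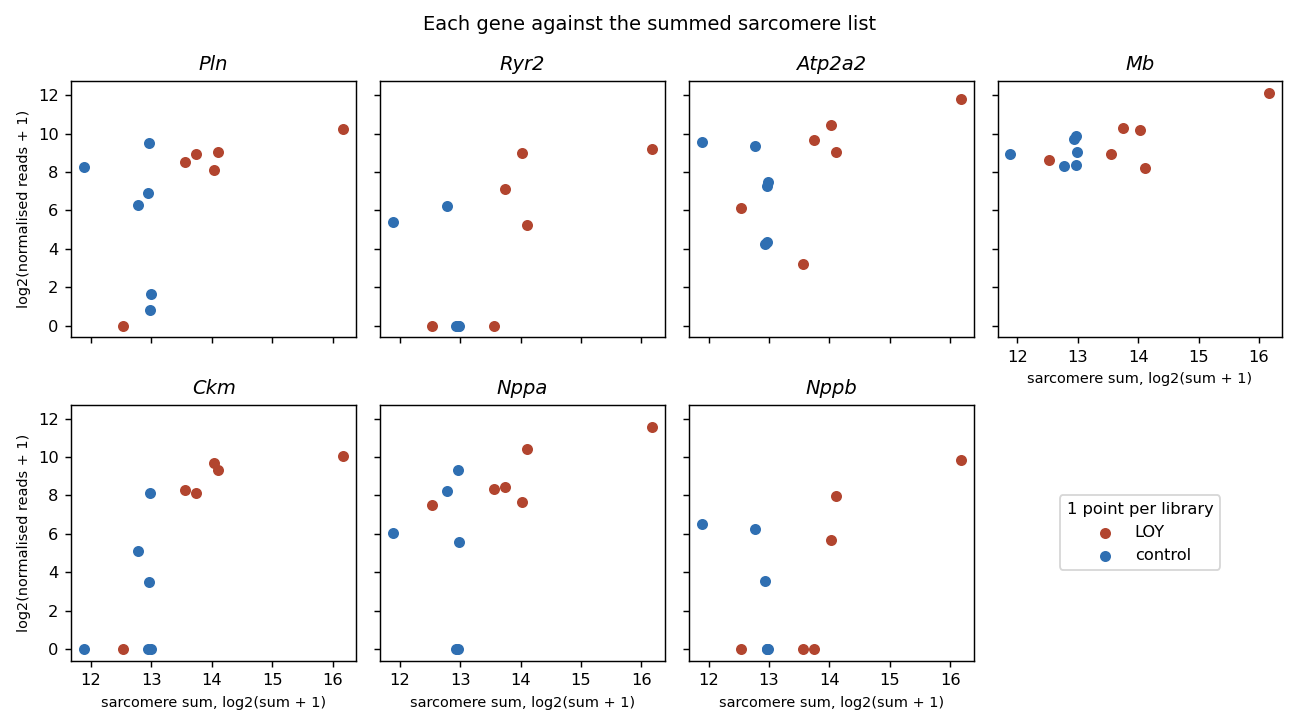
Each panel sets 1 gene, as log2(normalised reads + 1), against the sum of 18 sarcomere genes of the same library on the log2 scale, 1 point per library. LOY 10 is the point at the far right, and Ckm and Mb have the same r with the sum over all libraries (0.73). Among the control libraries Atp2a2 and Nppb are highest in control 12, which has the lowest sum.

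With the sarcomere list as a covariate in limma, the difference between LOY and control turned negative for Pln, at -1.07 (SE 2.15), for Atp2a2, at -0.48 (SE 1.74), for Mb, at -0.33 (SE 0.67), and for Nppb, at -1.80 (SE 2.33). It stayed positive for Ryr2, at 0.48 (SE 2.27), Ckm, at 1.97 (SE 2.24), and Nppa, at 3.69 (SE 2.15). None of these was called. The covariate was the mean of log2(normalised reads + 1) over the 18 sarcomere genes, not the log2 sum used for the correlations. All 15 tested genes of that list were positive, so the covariate differs between the genotypes too. The fit therefore takes out part of the difference between LOY and control.

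The other calcium genes were thinly detected. Of 20 calcium cycling genes outside the 7, 16 were in the table and only 6 met the filter, so the rest could not be tested. Casq2, calsequestrin of the reticulum, averaged 83.0 ± 94.1 normalised reads in LOY and 13.7 ± 16.3 in control (SD, n = 6 each). Camk2d, the calmodulin-dependent kinase that phosphorylates phospholamban, averaged 288 ± 296 in LOY and 132 ± 189 in control. S100a1, a calcium sensor that binds SERCA2 and the release channel, averaged 297 ± 137 in LOY and 211 ± 225 in control. None of the 6 was called and none had an unadjusted p below 0.05 in limma; all 6 differences were positive with a median log2 value of 1.82, and without LOY 10 the 4 still tested were positive with a median of 1.23. Over all 16 genes in the table the mean was higher in LOY for 12, 75.0%, as it was for 50.9% of all genes in the table. Slc8a1, the sodium-calcium exchanger, went the other way, with 0 reads in all LOY libraries and up to 233 normalised reads in 2 control libraries. Sln, the sarcolipin that inhibits SERCA in atrium and skeletal muscle, was read in 1 LOY and 2 control libraries.

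Neutrophils have calcium stores of their own, and a list of 14 pumps, channels and calcium sensors (Stim1 and Stim2) of other cells was set beside the cardiac ones. Of the 12 in the table, 9 were tested, 2 with positive and 7 with negative differences (median log2 value -0.36), 3 positive without LOY 10, and none was called. Atp2a3, the SERCA3 pump of blood cells, averaged 1071 ± 808 normalised reads in LOY and 572 ± 622 in control (SD, n = 6 each). Orai1, the store-operated channel of the plasma membrane, averaged 385 ± 308 in LOY and 875 ± 585 in control, and Atp2c1, a Golgi calcium pump, 321 ± 415 in LOY and 650.1 ± 468 in control. Atp2a1, the skeletal muscle pump, was read in 1 LOY library. Ryr1 and Ryr3 were not listed, so Ryr2 was the one ryanodine receptor gene measured.

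Energy genes were better covered. Of 22 listed, 19 were in the table and all 19 were tested, 13 positive and 6 negative with a median log2 value of 0.69, and none was called. Without LOY 10, 9 of the 16 tested were positive and the median was 0.24. The unadjusted p was below 0.05 in limma, with higher values in LOY, for 3 of the 19, beside 2.33% of all tested genes. These were Pgam2, the muscle phosphoglycerate mutase, at 4.64 (SE 1.62), Eno3, the muscle enolase, at 4.08 (SE 1.75), and Hadha, of mitochondrial fatty acid oxidation, at 3.98 (SE 1.46). Each had a limma adjusted p of 0.997. Without LOY 10 their log2 fold changes were 4.41 for Pgam2, 3.71 for Eno3 and 3.94 for Hadha. Fabp3, the heart fatty acid-binding protein, averaged 1131 ± 1598 normalised reads in LOY and 536 ± 334 in control (SD, n = 6 each), with 4387 in LOY 10. Without that library Fabp3 averaged 480.3 ± 101 in LOY. Of the 6 negative genes, Acadm, also of fatty acid oxidation, had the smallest p. It averaged 270.4 ± 317 in LOY and 514 ± 263 in control, at -2.70 (SE 1.51, limma adjusted p = 0.997). Ckmt2, the mitochondrial creatine kinase of the same phosphate shuttle as Ckm, averaged 251 ± 217 in LOY and 252 ± 342 in control, and the brain-type Ckb 199 ± 289 in LOY and 110.0 ± 131 in control. The LOY mean of Ckb rests largely on LOY 10, at 755 normalised reads, and its log2 fold change was 0.10 (SE 1.74).

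For the natriuretic pathway the data were sparser. Of 14 genes, 7 were in the table, and 3 were tested: Furin, a protease that cleaves pro-B-type peptide, and the cardiac transcription factors Mef2a and Mef2c, which blood cells also express. None of the 3 was called, and the median log2 value was 0.54. Over the 7 in the table the mean was higher in LOY for 6. Npr1, the receptor of both hormones, was read in 4 LOY libraries and 1 control library. Npr2 was read in 3 LOY libraries and no control library, and Gata4, the heart factor that binds GATA motifs, in 2 LOY libraries and no control library. Npr2 and Gata4 were both highest in LOY 10, at 184 and 283 normalised reads, while Npr1 was at 0 there. Ide, a protease that degrades insulin and natriuretic peptides, was the one with the lower mean in LOY, read in 2 LOY libraries at up to 9.89 normalised reads and in 4 control libraries at up to 429. Nppc, Corin and Npr3 were not listed. Among 8 atrial and fetal genes, 6 were tested and 5 were positive, 4 of 5 without LOY 10. Myh7, the slow myosin that is re-expressed with Nppa and Nppb in loaded mouse ventricle, averaged 542 ± 331 in LOY and 47.2 ± 55.5 in control (SD, n = 6 each), a log2 fold change of 4.30 (SE 1.09, unadjusted p = 0.00134, limma adjusted p = 0.708). All 6 LOY libraries, at 159.6 to 1069 normalised reads, were above the highest control library at 120.1, a gap found in 0.101% of tested genes. Without LOY 10 its log2 fold change was 4.06. Myl7, the atrial light chain, averaged 182 ± 366 in LOY and 102 ± 122 in control, and was read in 3 libraries of each.

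Markers of other heart cells were also higher in LOY in part, and their share in the result was not tested. The sarcomere list had 15 of 15 tested genes positive (median log2 value 1.42) and 12 of 13 without LOY 10 (median 0.67), and all 18 were in the table, 17 with the higher mean in LOY. Its smallest p-values were those of Myh6, the main ventricular myosin of the mouse, at 3256 ± 3595 normalised reads in LOY and 397 ± 180.2 in control, and of Des, the filament protein desmin, at 973 ± 1338 in LOY and 61.1 ± 149 in control (limma adjusted p = 0.696 and 0.997). Without LOY 10, Myh6 averaged 1842 ± 1075 and Des 448 ± 413 in LOY. Of 11 fibroblast markers, all with the higher mean in LOY, 8 were tested and positive (median 1.33), 7 of 8 without LOY 10 (median 0.77), and the summed level was 7487 to 20245 normalised reads in LOY and 5548 to 12689 in control. Dcn, the matrix protein decorin, had the smallest p among them, at 1102 ± 837 in LOY and 277 ± 284 in control. Pdgfra was read in 1 LOY library, Tcf21 in LOY 10 alone and Lum in 2 LOY libraries, with 1369 normalised reads in LOY 10, and all 3 were at 0 in every control library. Endothelial markers summed to 3324 to 6486 in LOY and 1166 to 5336 in control, with 7 of 10 tested genes positive, 5 of 8 without LOY 10, and Cav1, the caveolin of their membrane pits, at 454 ± 252 in LOY and 67.8 ± 68.4 in control. Smooth muscle and pericyte markers summed to 116 to 1955 in LOY and 539 to 989 in control, with 2 of 3 positive. Macrophage markers summed to 4102 to 13803 in LOY and 7730 to 10739.5 in control, with 2 of 10 positive, and the neutrophil list had 3 of 12 positive (median -0.29). B cell markers summed to 2996 to 8887 in LOY and 3263 to 12354 in control, with 1 of 7 positive, and red cell and platelet markers to 165 to 7385 in LOY and 13.6 to 9765 in control, with 1 of 5 positive. No gene of these lists was called. An unadjusted p below 0.05 in limma, with higher values in LOY, was found for 6 of 15 tested sarcomere genes. The same held for 3 of 10 endothelial and 1 of 8 fibroblast genes and for no gene of the other lists in this paragraph, beside 2.33% of all tested genes.

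**Figure D5:**
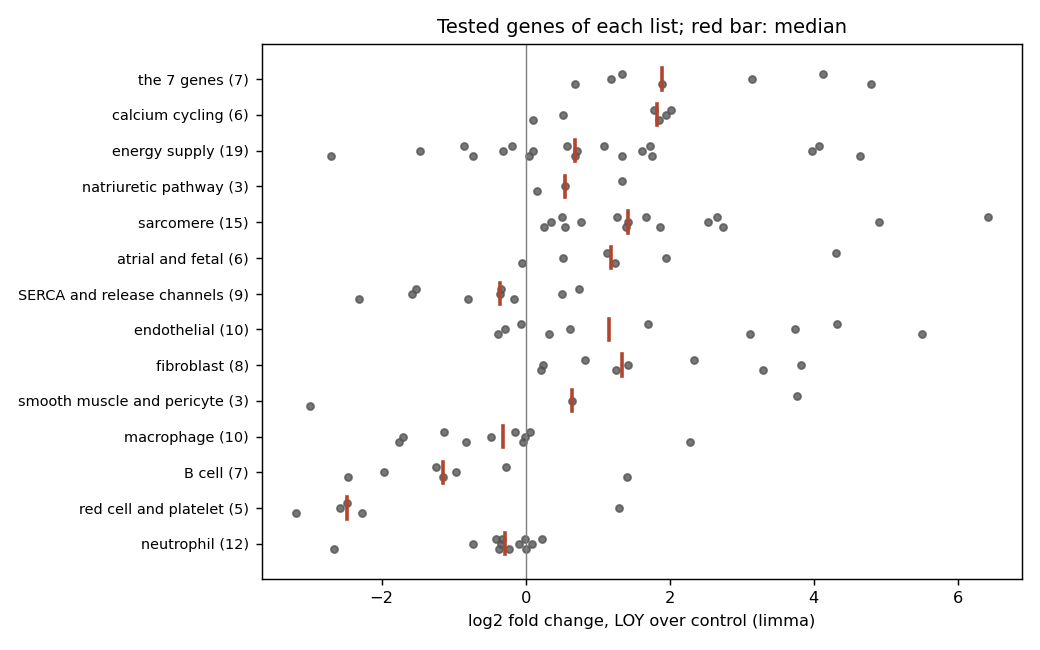
Points are the tested genes of each list on the log2 fold change scale, LOY over control from limma, with the number tested in brackets and the median as a red bar. The 7 genes and the calcium cycling, natriuretic pathway, sarcomere and fibroblast lists lie right of 0, and most neutrophil and macrophage genes lie at or left of it.

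Genes whose pattern over the 12 libraries was most like each of the 7, after taking out the genotype means, were searched among 6391 genes of a mean of at least 50 normalised reads, and those among the 3 closest of each are given with Pearson's r on the log2 scale, as a description with no test. For Pln they were Leng1 (0.98), Gpatch11 (0.96) and Rap2c (0.94), and for Ryr2 Uck1 (0.94), Eng (0.92) and Fam204a (0.91). Atp2a2 was closest to Ptpra (0.94), Clic4 (0.89) and Dgkd (0.89), and Mb to Mocs2 (0.86), Lsm12 (0.82) and Map2k2 (0.82). Ckm was closest to Arrb1 (0.93), Fuca2 (0.89) and Vac14 (0.88). Among the genes closest to Nppa were Api5 (0.88) and Rpsa (0.86), and Nppb was closest to Tmem165 (0.94), Dpp8 (0.91) and Ubap2 (0.90). None of the genes named here is in the sarcomere list. The points share their libraries, depth and factors, and with 12 points and so many genes searched a high r is easily found.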

How the data were processed

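The authors deposited 1 table of 11911 genes. Its signal columns hold read counts divided by 1 factor per library, per the file headers and the values; the reads were recovered from the smallest step of each library, and 100% of values came out whole to within 0.01. The authors deposited with it log2 fold changes and p-values. STAR 2.5.2b, Trimmomatic 0.36, Subread 1.5.2 with featureCounts and bcl2fastq 2.17 are named, with GRCm38 and mm10, per the submitters' processing notes; the authors' scaling and test are not given in the sources used here, but a DESeq2 fit to those reads arrived at library factors within a relative 4.08e-10 of the deposited ones and, for the 7 genes, at equal fold changes and p-values. Per the labels' protocols, cDNA was made with SMART-Seq v4 and Nextera XT, which keep neither strand nor molecular identifiers. Depth was 6767108 to 12561174 reads, and limits cover counting error only.

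Here limma 3.58.1 (trend, robust) was fitted to log2(normalised reads + 1) of genes with at least 10 in at least 6 libraries, 6951 genes, with Benjamini-Hochberg adjustment and a threshold of 0.05. Fold changes are on that scale, which understates changes of low genes and, where some libraries are at 0, can exceed the ratio of means. DESeq2 1.42.0 and edgeR 4.0.16 on the recovered reads, other scalings, filters, pseudocounts and libraries left out were alternatives. The fit was also run on simulated counts. These were not matched to the zeros of the 7 genes, and the outcome is not reported here. The two-sided correlation tests used 100000 permutations of all 12 libraries without regard to genotype, adjusted over 14 relations. The 7 genes and the 13 companion lists were chosen with earlier results of these data known. Beyond the 7, genes named are among the 3 of highest r to each, up to 4 of smallest p of a list, and paralogs; the others named for their role were chosen after their values were seen. Some genes that these rules name are not reported here.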

Additional observations from a re-analysis of the deposited data

Results flagged for a closer look

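In 18 sets of 6 libraries (each of the 7 genes, their sum and the sarcomere sum, in either genotype), 6 had 1 library whose gap to its nearest neighbour was above the 95% critical share of the whole range (Dixon). That limit marks about 1 in 20 sets of independent, normally distributed values. The values here were unlogged reads with zeros in several sets, and the sets share libraries and genes. The rate of 1 in 20 therefore need not hold, and the number marked cannot be judged against it. LOY 10 stood above the other LOY libraries in Mb, at 4474 normalised reads, in Nppb, at 921, in the sum of the 7 genes, at 14822, and in the sarcomere sum, at 73941. Among control libraries, control 6 stood above the rest in Ckm, at 278 normalised reads, and control 12 below the rest in the sarcomere sum, at 3784. No cause was tested for any of them.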

How the results depend on the processing

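None of the 7 genes was called in any of the 22 alternative fits, and 138 of their 142 values kept the positive direction. The 142 hold no value of Ryr2 or Nppb without LOY 10, where neither met the filter. The 4 that reversed were those with the sarcomere covariate, -1.07 for Pln, -0.48 for Atp2a2, -0.33 for Mb and -1.80 for Nppb; the cause was not tested. Of all genes, 2 were called; DESeq2, whose values for the 7 genes equal the deposited ones, called 303, edgeR 0 (129 at an unadjusted p below 0.05), the fit without a filter 0, that with a mean of at least 50 normalised reads 0, and the covariate fit 1. Leaving out each library in turn gave 0 to 4 calls: 4 without control 11, 3 without control 6, 2 without LOY 10, 1 without control 2 and 0 without any 1 of the other 8.

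In those fits the log2 fold change ran from 0.94 to 3.39 for Pln, from 0.66 to 2.38 for Atp2a2, from 0.21 to 0.99 for Mb, from 4.24 to 6.32 for Ckm and from 3.16 to 5.02 for Nppa. Ryr2, at 2.76 to 4.16, and Nppb, at 0.65 to 1.98, each met the filter in 6 of the 12. In each of those 6, the gene was at 0 in the library left out. The ranges of Ryr2 and Nppb therefore cover no fit without a library in which they were read, LOY 10 among these. How far such a fit would move them was not tested. Without LOY 10, 4 of 4 tested calcium cycling genes were positive, a list tested this way after seeing the data. No scaling moved the median of all genes by over 0.1. No paired analysis was possible because the genotypes share no replicate number. Of 84 values, 5 lie between 1 and 20 reads; the 800 cells behind each library and the spread between libraries limit precision.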
